A study of Mus musculus with 10 samples.

Results

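Transcripts of 9 genes of the ERK signalling loop were compared in mouse liver: the receptor Egfr, the immediate early gene Egr1, and the feedback inhibitors Dusp4, Dusp6, Spry1, Spry2, Spry4, Spred1 and Spred2. They were chosen by name, with earlier results of these arrays known, as every transcript cluster (the array's unit for 1 gene) listed with that symbol alone. This gave 10 clusters, 1 per gene and a further one for Dusp6, of 41345 on the array, and 9 of 22180 named genes. RNA came from livers of fasted male mice about 2 weeks after an adeno-associated virus (AAV) whose TBG promoter is active in hepatocytes. The groups were LTKO mice with FST288 (LTKO FST288, n = 2), LTKO mice with GFP (LTKO GFP, n = 2), wild-type mice kept on high-fat food (HFD) with FST288 (HFD FST288, n = 3) and the same with GFP (HFD GFP, n = 3). FST288 is a form of the activin-binding protein follistatin and GFP is the control cargo, so every mouse carried a virus. LTKO is not written out in the labels; mice of that name are known to lack Foxo1, Irs1 and Irs2 in the liver. The diet of the LTKO mice, and the strain and age of all mice, are not stated, so genotype and diet cannot be told apart where LTKO is set against HFD. Since separate animals are not stated either, the p-values cover the spread between arrays, which may be technical.

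When a growth factor binds a receptor tyrosine kinase such as EGFR, RAS, RAF and MEK pass the signal on to the kinase ERK, which switches on transcription. Among the genes so induced are inhibitors of the same pathway, and their transcripts are widely used as a readout of ERK output. DUSP phosphatases remove the activating phosphates from MAP kinases, Sprouty proteins block the step between receptor and RAF, and SPRED proteins bring the RAS inhibitor neurofibromin to the membrane. Hepatocytes are rich in EGFR, which has roles in liver growth and regeneration.

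Albumin (Alb), the defining hepatocyte product, lay between 13.05 and 13.21 on all 10 arrays on the log2 scale of the deposited values, at the top of the table, where an array may no longer resolve differences. Of the 8 hepatocyte markers, Alb among them, some did differ between backgrounds. In LTKO against HFD livers with GFP, 2 were called lower, the tyrosine-degrading enzyme Tat (-0.72) and the urea cycle enzyme Cps1 (-0.21). The transcription factor Hnf4a (0.71) and the P450 Cyp2e1 (0.20), also 2, were called higher, where 13.1% of all genes were called (6.69% higher and 6.4% lower). With FST288 in both, 3 were called lower, Tat (-0.42), Cps1 (-0.41) and Serpina1a (-0.37), where 5.29% of all genes were called lower. FST288 over GFP gave 1 call in HFD livers, Ttr (-0.39), and 0 in LTKO livers by limma, where 0.996% and 0.167% of all genes were called. In LTKO livers 3 of the 8 had an unadjusted p under 0.05, as did 2213 of all 22180 genes. The summed level of the 8 was 14.96 to 15.04 in LTKO FST288, 15.04 to 15.13 in LTKO GFP, 15.08 to 15.12 in HFD FST288 and 15.12 to 15.18 in HFD GFP livers, and the part of these shifts in the differences of the 9 genes was not tested. The median named gene lay between 3.10 and 3.17 on each array, a level near which a log2 difference understates the true fold. Fst, the cargo, averaged 6.35 in HFD FST288 livers and 5.27 in HFD GFP livers. It was uneven in the first, at 6.80, 5.78 and 6.45 on replicates 1, 2 and 3, against 5.22 to 5.34 in HFD GFP livers. In LTKO livers Fst averaged 6.79 with FST288 and 5.35 with GFP. FST288 and GFP arrays did not overlap in either background. Irs1, Irs2 and Foxo1 differed between LTKO GFP and HFD GFP livers by -1.77, -1.21 and -1.68 on the log2 scale, also with no overlap. HFD FST288 replicates 2 and 3 stood apart in pancreatic acinar transcripts: the median of 6 measured markers, of 9 listed, was 8.68 and 7.54 there, 2.55 on replicate 1 and 2.18 to 2.58 on the other 7 arrays. LTKO FST288 replicate 2 stood apart in Kupffer cell and macrophage transcripts, with a median of 7.12 over 7 markers, against 5.48 on replicate 1 and 4.88 to 5.59 on the other arrays. In whole liver, fewer cells of a type and less RNA per cell cannot be told apart.

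Promoter sequence is shown for Egfr and Dusp6, whose transcripts were lower (Egfr) and higher (Dusp6) in LTKO than in HFD livers that carried GFP. RefSeq (GRCm38.p6) gave the 250 bases before the transcription start for 6 of the 9 genes: Egfr, Dusp6, Spry1, Spry2, Spred1 and Spred2. Both printed stretches lie on the plus strand, Egfr at chr11:16751953-16752202 and Dusp6 at chr10:99262981-99263230, and capitals mark a match to a searched motif.
Egfr: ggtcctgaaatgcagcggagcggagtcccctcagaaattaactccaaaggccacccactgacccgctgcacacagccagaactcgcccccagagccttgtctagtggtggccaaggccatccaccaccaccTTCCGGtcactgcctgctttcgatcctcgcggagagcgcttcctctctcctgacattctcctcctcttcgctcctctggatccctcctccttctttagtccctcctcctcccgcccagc
Dusp6: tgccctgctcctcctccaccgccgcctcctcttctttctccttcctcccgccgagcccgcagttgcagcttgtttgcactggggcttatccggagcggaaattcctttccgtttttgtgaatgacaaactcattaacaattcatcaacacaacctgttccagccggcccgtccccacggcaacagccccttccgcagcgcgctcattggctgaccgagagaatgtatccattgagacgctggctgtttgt
Both strands were searched for CCGGAA (bound by ETS factors, which ERK phosphorylates), TGACGT (the core of the cyclic AMP response element), TGANTCA (AP-1), GTAAACA (FoxO) and GTGGGCG (the core of the EGR site). Of these, CCGGAA occurred once in Egfr, on the minus strand 119 to 114 bases before the start, and TGACGT once in Spred2, on the minus strand 52 to 47 bases before it; the letters occurred nowhere else in the 6 windows. Among all 32851 mouse promoters of the same length, 12.0% held CCGGAA, 6.47% TGACGT, 6.75% TGANTCA, 3.17% GTAAACA and 7.02% GTGGGCG. The windows of these 6 genes were 56.0% to 70.8% G and C, against a median of 52.4% over all promoters. A match is a description of the letters and not a measured binding site.

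**Figure D1:**
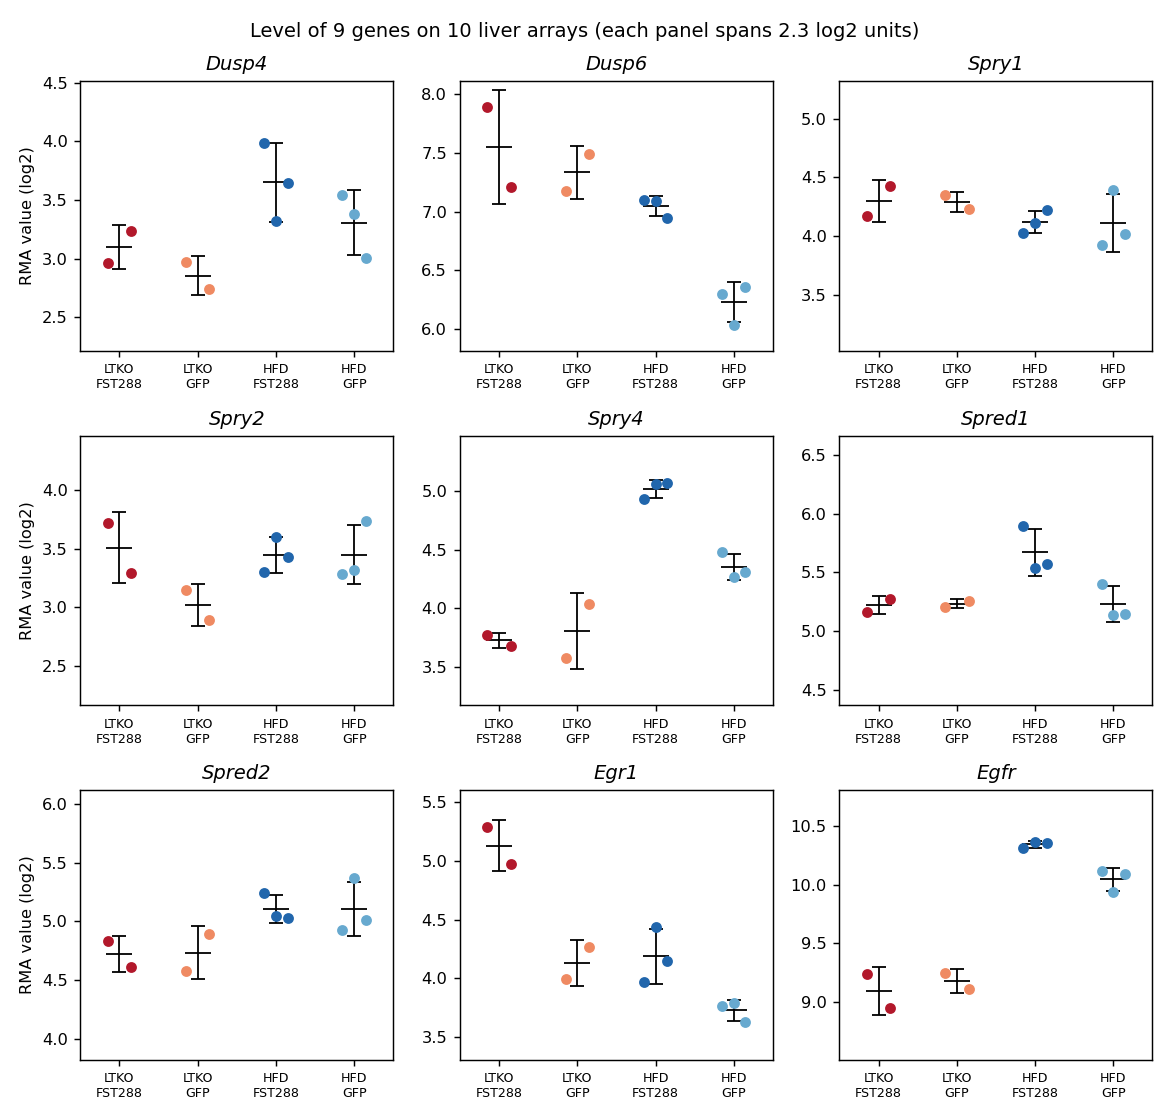
RMA values (log2) of the 9 genes on each of the 10 arrays, with the mean and SD of each group; each panel spans the same number of log2 units around its own level. Egfr and Spry4 lie lower on the 4 LTKO arrays than on the 6 HFD arrays, Dusp6 is lowest on the 3 HFD GFP arrays, and Egr1 is highest on the 2 LTKO FST288 arrays.

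Egfr (cluster 17247389) divided the backgrounds. Its values were 9.23 and 8.95 in LTKO FST288 livers, 9.25 and 9.11 in LTKO GFP livers, 10.31, 10.36 and 10.35 in HFD FST288 livers, and 10.12, 9.93 and 10.09 in HFD GFP livers. All 4 LTKO arrays lay below all 6 HFD arrays, the 2 LTKO groups overlapped, and the 3 HFD FST288 arrays lay above the 3 HFD GFP arrays. Against HFD GFP, Egfr fell 1.83-fold in LTKO GFP livers, by 0.87 ± 0.09 on the log2 scale (SE; 95% interval of the change -1.07 to -0.67; limma, adjusted p = 2.72e-05). With FST288 in both, it fell 2.38-fold in LTKO livers, by 1.25 ± 0.09 (interval of the change -1.45 to -1.05; limma, adjusted p = 1.03e-06). Leaving out each array in turn, these differences stayed between -0.94 and -0.80 and between -1.39 and -1.11, with adjusted p up to 0.000650 and 1.88e-05. In all such fits, an array left out of a group not compared moves only the estimate of spread, and not the difference. An LTKO array left out leaves 1 in its group. FST288 against GFP gave 0.30 ± 0.08 in HFD livers (interval 0.12 to 0.47; limma, adjusted p = 0.134) and -0.09 ± 0.10 in LTKO livers (-0.30 to 0.13, adjusted p = 0.845), neither of which passed the test.

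Egr1 (17349514), a zinc finger transcription factor that ERK induces within minutes through ELK1 and SRF, was highest in LTKO livers with FST288. It measured 5.29 and 4.98 in LTKO FST288 livers, 3.99 and 4.27 in LTKO GFP livers, 3.97, 4.44 and 4.15 in HFD FST288 livers, and 3.77, 3.79 and 3.63 in HFD GFP livers. Both LTKO FST288 arrays lay above every other array, LTKO GFP and HFD FST288 overlapped, and all 3 HFD GFP arrays lay below the rest. Among FST288 livers Egr1 rose 1.92-fold in LTKO over HFD (0.94 ± 0.17 on the log2 scale, interval 0.59 to 1.30; limma, adjusted p = 0.00189), a call kept in each of 10 fits that left out 1 array (0.79 to 1.10, adjusted p up to 0.0309). Within LTKO livers the difference between FST288 and GFP was 1.00 ± 0.18 (interval 0.61 to 1.39), a 2.00-fold higher value, and it stayed just outside the threshold (limma, adjusted p = 0.0519). That value was 0.85 to 1.16 without single arrays, uncalled in all 10 fits (adjusted p from 0.0586 to 0.198). In HFD livers FST288 against GFP gave 0.46 ± 0.15 (0.14 to 0.78, adjusted p = 0.200), and among GFP livers LTKO against HFD gave 0.40 ± 0.17 (0.04 to 0.76, adjusted p = 0.145). Kupffer cell and macrophage markers moved with the FST288 comparison of backgrounds: 5 of the 7 were called higher in LTKO FST288 than in HFD FST288 livers, where 5.05% of all genes were. Their summed level, as log2 of the sum, was 8.95 to 10.16 in LTKO FST288, 8.34 to 8.61 in HFD FST288, 8.70 to 8.93 in LTKO GFP and 8.34 to 8.87 in HFD GFP livers. Without LTKO FST288 replicate 2, the array with the high markers, 1 array is left in that group and the spread comes from the other groups. Egr1 then differed by 1.10 between backgrounds with FST288 and by 1.16 between FST288 and GFP in LTKO livers.

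Dusp6 (17236882), the cytoplasmic phosphatase for ERK, ran opposite to Egfr between the backgrounds. Its values were 7.89 and 7.21 in LTKO FST288 livers, 7.18 and 7.50 in LTKO GFP livers, 7.10, 7.09 and 6.95 in HFD FST288 livers, and 6.30, 6.04 and 6.36 in HFD GFP livers. The HFD GFP arrays were the lowest 3, every LTKO array lay above every HFD array, and the LTKO groups overlapped. With GFP, Dusp6 was 2.15-fold higher in LTKO than in HFD livers (1.10 ± 0.17 on the log2 scale, interval 0.73 to 1.48; limma, adjusted p = 0.000767), and 0.95 to 1.26 without single arrays, called in all 10 fits. In HFD livers it rose 1.76-fold with FST288 over GFP, by 0.82 ± 0.16 (interval 0.48 to 1.15; limma, adjusted p = 0.0226). That call was lost without each of the 6 HFD arrays (HFD FST288 and HFD GFP replicates 1, 2 and 3), where the difference was 0.72 to 0.88 and the adjusted p 0.0568 to 0.110. In LTKO livers FST288 against GFP gave 0.22 ± 0.19 (-0.20 to 0.63, adjusted p = 0.770). Among FST288 livers the backgrounds differed by 0.51 ± 0.17 (0.13 to 0.88; limma, adjusted p = 0.0924). With 1 LTKO FST288 array left, the difference was 0.85 without replicate 2 and 0.16 without replicate 1.

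The other cluster of Dusp6 (17547559) showed none of this. It read 2.50 and 1.85 in LTKO FST288 livers, 2.13 and 2.10 in LTKO GFP livers, 2.11, 2.13 and 2.19 in HFD FST288 livers, and 2.03, 2.18 and 2.24 in HFD GFP livers, all under the median of named genes. Its differences in the 4 comparisons ran from -0.04 to 0.06, with adjusted p from 0.930 to 0.992 over the clusters with 1 symbol. Averaged over both clusters, Dusp6 differed by 0.40 with FST288 over GFP in HFD livers (adjusted p = 0.288) and by 0.53 between LTKO GFP and HFD GFP livers (0.0572), so both calls rest on the brighter cluster.

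Dusp4 (17500535), the nuclear relative of DUSP6, was near the median of named genes. It measured 2.97 and 3.23 in LTKO FST288 livers, 2.97 and 2.74 in LTKO GFP livers, 3.99, 3.32 and 3.65 in HFD FST288 livers, and 3.54, 3.38 and 3.00 in HFD GFP livers. With either vector the LTKO arrays lay below the HFD arrays of that vector, and FST288 and GFP arrays overlapped in HFD livers. Its differences were 0.34 ± 0.19 for FST288 over GFP in HFD livers (adjusted p = 0.513), 0.24 in LTKO livers (0.795), -0.45 ± 0.21 for LTKO against HFD with GFP (0.200) and -0.55 ± 0.21 with FST288 (0.134), and none passed the test. In HFD livers the value was 0.17 without HFD FST288 replicate 1 (adjusted p = 0.782), the array with its highest value, 0.19 without HFD GFP replicate 3 (0.791) and 0.51 without HFD FST288 replicate 2 (0.423).

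Of the 3 Sprouty genes, Spry4 (17353957) carried the differences. It measured 3.77 and 3.68 in LTKO FST288 livers, 3.58 and 4.04 in LTKO GFP livers, 4.93, 5.06 and 5.07 in HFD FST288 livers, and 4.48, 4.27 and 4.31 in HFD GFP livers. As for Egfr, all LTKO arrays lay below all HFD arrays, and the HFD FST288 arrays lay above the HFD GFP arrays. In HFD livers it rose 1.59-fold with FST288 over GFP, by 0.67 ± 0.14 (interval 0.38 to 0.96; limma, adjusted p = 0.0321), a call lost without each of the 6 HFD arrays (0.63 to 0.73, adjusted p from 0.0571 to 0.151). In LTKO livers the same comparison gave -0.08 (-0.44 to 0.28, adjusted p = 0.930). With FST288 in both, Spry4 fell 2.45-fold in LTKO against HFD livers, by 1.29 ± 0.15 (interval of the change -1.62 to -0.96; limma, adjusted p = 7.12e-05), kept without any single array (-1.34 to -1.25, adjusted p up to 0.00142). With GFP it fell 1.46-fold in LTKO livers, by 0.54 ± 0.15 (interval of the change -0.87 to -0.22; limma, adjusted p = 0.0297). This smaller change was not called without HFD GFP replicate 1 (-0.48, adjusted p = 0.0961), HFD GFP replicate 3 (-0.57, 0.0579) or LTKO GFP replicate 1 (-0.32, 0.306).

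Spry1 (17397170) and Spry2 (17309340) gave no call in any comparison. Spry1 lay within 0.50 log2 units on all 10 arrays, from 3.92 to 4.42, and its differences in the 4 comparisons ran from 0.01 to 0.18, with adjusted p from 0.547 to 0.995. For FST288 over GFP in HFD livers its interval was -0.30 to 0.32, so a change of the size fitted for Spry4 lies outside it. Spry2 read 3.72 and 3.29 in LTKO FST288 livers, 3.15 and 2.89 in LTKO GFP livers, 3.30, 3.60 and 3.43 in HFD FST288 livers, and 3.28, 3.32 and 3.74 in HFD GFP livers. Its LTKO groups did not overlap, with a difference of 0.49 ± 0.20 between FST288 and GFP that missed the threshold (0.05 to 0.93, adjusted p = 0.453), while in HFD livers the interval was -0.36 to 0.36 (adjusted p = 0.999). LTKO against HFD gave -0.43 ± 0.19 with GFP (0.171) and 0.06 with FST288 (0.912).

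Spred1 (17374455) separated the HFD vectors without passing the test. It measured 5.17 and 5.28 in LTKO FST288 livers, 5.21 and 5.26 in LTKO GFP livers, 5.90, 5.54 and 5.57 in HFD FST288 livers, and 5.40, 5.14 and 5.14 in HFD GFP livers. The 3 HFD FST288 arrays were the highest of the 10, and the LTKO arrays lay among the HFD GFP arrays. FST288 over GFP gave 0.44 ± 0.12 in HFD livers (0.17 to 0.71, adjusted p = 0.135) and -0.01 in LTKO livers (0.992). LTKO against HFD gave -0.45 ± 0.14 with FST288 (adjusted p = 0.0591) and 0.00485 with GFP (0.990). Spred2 (17247519) measured 4.83 and 4.62 in LTKO FST288 livers, 4.58 and 4.90 in LTKO GFP livers, 5.24, 5.05 and 5.03 in HFD FST288 livers, and 4.93, 5.37 and 5.01 in HFD GFP livers. The LTKO arrays lay below the HFD arrays, but the differences of -0.37 ± 0.16 with GFP and -0.38 ± 0.16 with FST288 were not called (adjusted p = 0.165 and 0.182), and within each background the vectors overlapped.

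Counted over the 9 genes, FST288 against GFP in HFD livers gave 2 calls, Dusp6 and Spry4, both higher, where 0.996% of all genes were called (0.577% higher and 0.419% lower). In 5 genes, these and Egfr, Egr1 and Spred1, every FST288 array lay above every GFP array, where 18.4% of all genes did not overlap (9.3% higher and 9.11% lower). The median difference of the 9 was 0.34, against -0.003 over all genes. In LTKO livers limma called 0 of the 9, where 0.167% of all genes were called (0.0992% higher and 0.0676% lower). An unadjusted p under 0.05 was found in 2 of the 9, Egr1 and Spry2, and in 2213 of all 22180 genes. The groups did not overlap in Egr1 and Spry2, both higher, as in 37.8% of all genes (16.8% higher and 21.1% lower), and the median was 0.01, against -0.017 over all genes. LTKO against HFD with GFP gave 3 calls, Dusp6 higher and Egfr and Spry4 lower, where 13.1% of all genes were called (6.69% higher and 6.4% lower). The groups did not overlap in 7 genes, 2 higher and 5 lower, as in 40.3% of all genes (21.1% higher and 19.2% lower). With FST288 there were also 3 calls, Egr1 higher and Egfr and Spry4 lower, where 10.3% of all genes were called (5.05% higher and 5.29% lower). Here too 2 genes lay higher and 5 lower without overlap, as 37.4% of all genes did (18.8% higher and 18.6% lower). Because the genes were chosen with results of these arrays known, these counts describe the set and support nothing about it. The comparisons also share arrays, so a low HFD GFP value enters the HFD comparison of vectors and the GFP comparison of backgrounds together.

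**Figure D2:**
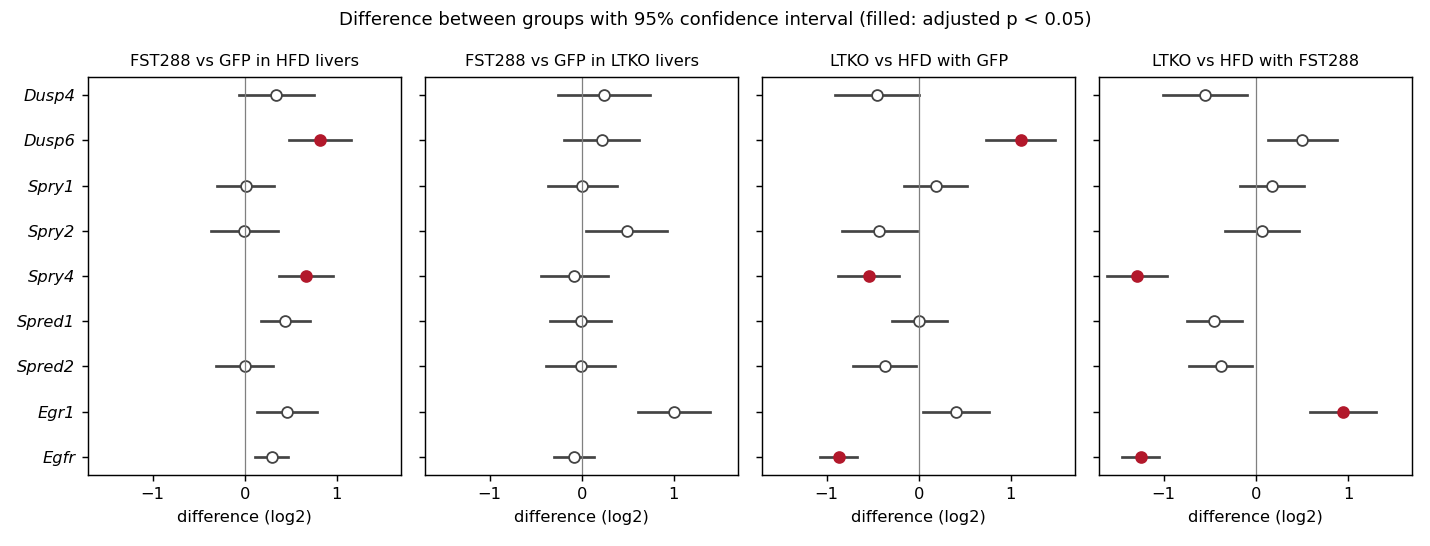
Difference between groups in log2 units for the 9 genes in each of the 4 comparisons, as points with 95% confidence intervals; filled points have an adjusted p under 0.05 over all 22180 genes. Dusp6 and Spry4 are filled for FST288 in HFD livers, no gene is for FST288 in LTKO livers, and Egfr and Spry4 lie to the left of 0 in both comparisons of LTKO with HFD.

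Whether FST288 acted differently in the 2 backgrounds was tested as the effect in LTKO minus the effect in HFD livers. Limma called 0 of the 9 genes, where 0.216% of all genes were called (0.117% higher and 0.0992% lower). An unadjusted p under 0.05 was found in 5 of the 9, and in 2795 of all 22180 genes. Spry4 differed by -0.75 ± 0.21 (-1.21 to -0.28, adjusted p = 0.181), Dusp6 by -0.60 ± 0.25 (-1.13 to -0.07, 0.340), Spred1 by -0.45 ± 0.20 (0.368), Egfr by -0.38 ± 0.13 (0.261) and Egr1 by 0.54 ± 0.24 (0.369). The first 4 had larger FST288 effects in HFD than in LTKO livers and Egr1 the reverse, without a call. Without LTKO FST288 replicate 1, the array with its highest value, Dusp6 was at -0.94, with 1 array left in that group.

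Acinar transcripts were high on HFD FST288 replicates 2 and 3 and not on replicate 1. For FST288 over GFP in HFD livers all 6 measured acinar markers had an unadjusted p under 0.05, against 2672 of all 22180 genes, and limma called 0. Their summed level was 5.69 to 11.26 in HFD FST288 livers and 5.49 to 5.75 in HFD GFP livers. With the acinar median as a covariate, FST288 over GFP in HFD livers gave 0.87 for Dusp6 (adjusted p = 0.353), 0.58 for Spry4 (0.560), 0.67 for Spred1 (0.283), 0.27 for Egfr (0.786) and 0.23 for Egr1 (0.944). Without replicates 2 and 3 the group keeps 1 HFD FST288 array, which is assumed to vary like the other groups, and the values were 0.87 (0.514), 0.58 (0.728), 0.67 (0.418), 0.26 (0.906) and 0.24 (0.982). Dusp4 was at 0.71 (0.551) with the covariate and at 0.68 (0.720) without those arrays, against 0.34 with all arrays, and Egr1, at 0.46 with all arrays, was smaller under both. None of these values was called. The acinar median was high only on replicates 2 and 3, so both settings rest mainly on replicate 1 and are not separate checks. Between backgrounds with FST288, again with that 1 array as the HFD arm, the values were -1.22 for Egfr (adjusted p = 0.000627), -1.20 for Spry4 (0.0111), 1.16 for Egr1 (0.0101) and -0.89 for Dusp4 (0.0899), whose spread comes from the other groups.

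Further genes of the pathway were read in 5 lists by role, with 75 of 84 listed genes measured, all chosen with earlier results known. FST288 against GFP in HFD livers gave 1 call among the 75 (1.33%, against 0.996% of all genes): Erbb4, the neuregulin receptor of the EGFR family, fell 1.80-fold, by 0.85 ± 0.17, to 3.13 in HFD FST288 livers, against 3.98 in HFD GFP livers (limma, adjusted p = 0.0328). That call was lost without HFD GFP replicate 2 or 3 or any HFD FST288 replicate (adjusted p from 0.0509 to 0.171), and Erbb4 was at -0.67 with the acinar covariate (0.628) and at -0.71 without both acinar-high arrays (0.720). Of the other lists the genes with the smallest p were Nrg4, a ligand of ERBB4, at 0.61 (adjusted p = 0.0798), the RAS exchange factor Sos2 at -0.32 (0.169), the ubiquitin ligase Cblb at -0.43 (0.0945) and the receptor Epha2 at 0.44 (0.139). Nrg4 was called without LTKO FST288 replicate 1 or 2 (adjusted p from 0.0283 to 0.0291). In LTKO livers limma called 0 of the 75, with 12 at an unadjusted p under 0.05, against 2213 of all 22180 genes. Smallest in p there were the ligand Ereg at -0.66 (adjusted p = 0.289), the receptor Pdgfra at 0.42 (0.548), the adaptor Gab2 at 0.39 (0.492), Spred3 at -0.69 (0.154) and cyclin D1 (Ccnd1), which drives entry into the cell cycle, at 0.70 (0.306). Ccnd1 was at 1.11 without LTKO FST288 replicate 1, which leaves 1 array in that group. The difference of the effects was called in 0 of the 75, with 11 at an unadjusted p under 0.05, against 2795 of all 22180 genes. Lrig1, an inhibitor of EGFR family receptors, came nearest at -0.84 (adjusted p = 0.0966), and the others smallest in p were Nrg4 at -0.53 (0.376), Erbb4 at 0.56 (0.414), Sos2 at 0.37 (0.353) and Ccnd1 at 0.85 (0.260). Without LTKO FST288 replicate 1, again with 1 array left in that group, the difference was -1.03 in Lrig1 and 1.26 in Ccnd1.

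LTKO against HFD livers with GFP gave 14 calls among the 75, 4 higher and 10 lower, or 18.7% against 13.1% of all genes. Besides Egfr, 2 of 8 measured ligands fell, Nrg4 (-0.74, limma, adjusted p = 0.00830) and betacellulin (Btc, -0.60, 0.0208). Of 14 receptors Erbb4 (-1.37, 0.000325) and the hepatocyte growth factor receptor Met (-0.52, 0.00991) fell, and Fgfr4, the receptor through which FGF15 represses bile acid synthesis, rose (0.54, 0.0192). In the RAS-ERK cascade, with 16 of 23 genes measured, the exchange factors Sos2 (-0.50, 0.00800) and Sos1 (-0.45, 0.0192) and the adaptor Gab1 (-0.46, 0.0292) fell, and Map2k2, which encodes MEK2, rose (0.68, 0.00350). Of 18 other inhibitors Errfi1, which encodes the EGFR inhibitor MIG6 (-0.95, 0.00353), and the phosphatase gene Dusp1 (-0.71, 0.0428) fell, while Pebp1, encoding the RAF kinase inhibitor protein (1.52, 0.00139), and Cblb (0.65, 0.00266) rose. Of 19 immediate early and ERK-responsive genes 1 fell, Phlda1 (-0.50, 0.0412). The list medians ran from -0.15 for the ligands to 0.08 for the immediate early genes.

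Of these 14 calls, 5 (Cblb, Erbb4, Errfi1, Map2k2 and Pebp1) were kept in each fit that left out 1 array, and 9 were lost in at least 1 (adjusted p from 0.0516 to 0.435). Lost were Gab1, Phlda1 and Sos1 without HFD GFP replicate 1, Btc, Dusp1 and Phlda1 without replicate 2, and Btc, Dusp1, Fgfr4 and Gab1 without replicate 3. Without LTKO GFP replicate 1 the calls in Btc, Dusp1, Fgfr4, Gab1 and Met were lost, and without replicate 2 those in Btc, Fgfr4, Gab1, Nrg4, Phlda1, Sos1 and Sos2. Dusp1 was also lost without HFD FST288 replicates 1 and 3, and Phlda1 without replicate 3. The LTKO GFP arrays differed most in Errfi1 (-0.47 without replicate 1, -1.42 without replicate 2), Pebp1 (0.92 without replicate 1) and Dusp1 (-0.33 without replicate 1, -1.08 without replicate 2). Averaged over all its clusters, Pebp1 differed by 0.66 with GFP (adjusted p = 0.0221) and by 0.78 with FST288 (0.00935), called in both and smaller than in its brightest cluster.

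**Figure D3:**
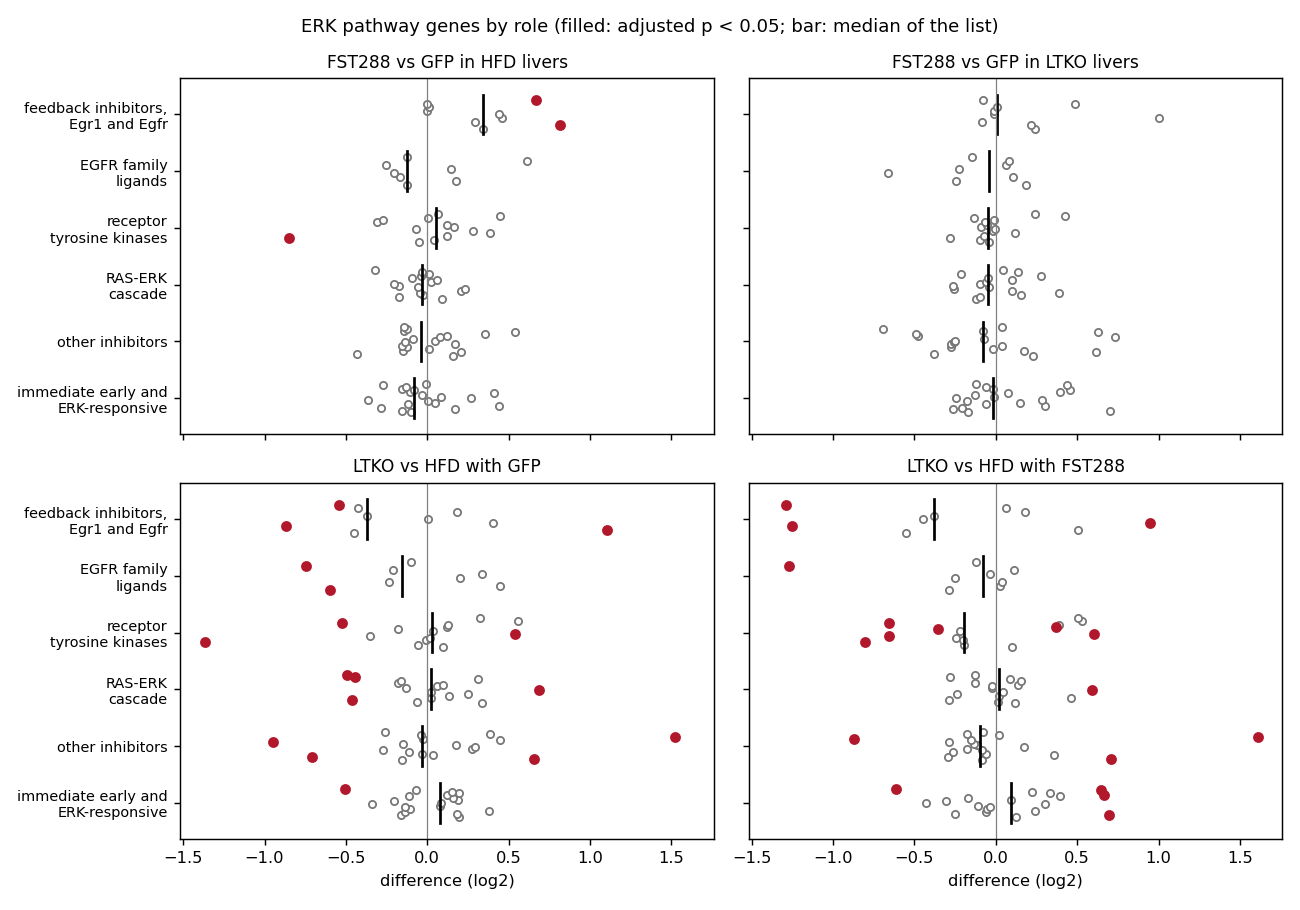
Difference (log2) of each measured gene in the set of 9 and in the 5 lists by role, 1 panel per comparison; filled points have an adjusted p under 0.05 and bars mark the list median. In the upper panels 3 points are filled, Dusp6, Spry4 and Erbb4, all for FST288 in HFD livers, while the lower panels, LTKO against HFD, hold filled points on both sides of 0.

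With FST288 in both backgrounds, LTKO against HFD gave 15 calls among the 75, 8 higher and 7 lower, or 20% against 10.3% of all genes. Nrg4 fell by 1.27 (limma, adjusted p = 0.000173), to 4.34 in LTKO FST288 livers, against 5.61 in HFD FST288 livers. Of the receptors, Met (-0.66, 0.00234), Erbb4 (-0.80, 0.0156), Fgfr3 (-0.65, 0.0242) and Insr, the insulin receptor (-0.36, 0.0402), fell, and Fgfr4 (0.60, 0.0115) and Kdr, the endothelial VEGF receptor (0.37, 0.0269), rose. Of 7 endothelial markers, Kdr among them, 1 was called higher and 1 lower, with a median difference of -0.11. Map2k2 rose again (0.59, 0.00996), as did Pebp1 (1.61, 0.000934) and Cblb (0.71, 0.00163), while Lrig1 fell (-0.87, 0.000692). Among immediate early and ERK-responsive genes Jun (0.66, 0.0172), Myc (0.64, 0.0377) and Ccnd1 (0.69, 0.0482) rose, and Phlda1 fell (-0.62, 0.0172). Cblb, Lrig1, Met, Nrg4 and Pebp1 were called in each fit that left out 1 array, and the other 10 were lost in at least 1 (adjusted p from 0.0528 to 0.517). Without LTKO FST288 replicate 2, the array with high macrophage markers, 1 array is left in that group. Jun was then at 0.46, Myc at 0.59 and Ccnd1 at 0.29, none of them called, and without replicate 1 Ccnd1 was at 1.10.
The calls in Erbb4, Fgfr3, Insr, Kdr and Phlda1 were lost without either LTKO FST288 replicate, those in Map2k2 and Myc without replicate 1 and that in Fgfr4 without replicate 2. Lost without HFD FST288 replicate 1 were Ccnd1, Erbb4, Fgfr3, Insr and Phlda1, without replicate 2 Ccnd1, Insr, Jun, Kdr and Myc, and without replicate 3 Ccnd1, Erbb4, Fgfr3, Fgfr4, Insr, Kdr and Myc. Insr was also lost without each HFD GFP replicate, Myc and Ccnd1 without HFD GFP replicate 3, and Ccnd1 without LTKO GFP replicate 1 or 2. Adding the acinar covariate, the calls in Nrg4, Pebp1, Cblb, Lrig1, Fgfr3 and Phlda1 were kept and those in the other genes lost, among them Myc, at 0.41 (adjusted p = 0.489), and Met, at -0.60 (0.0635). Without both acinar-high arrays Lrig1 (-0.76, adjusted p = 0.0555) and Pebp1 (1.53, 0.0508) were lost as well.

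Genes with a profile most like that of Dusp6, Spry4, Egr1 and Egfr were sought among 10333 genes at or above the median level, by the root mean square difference between profiles over the 10 arrays, each centred on its own mean. Nearest to Egfr were Gne (0.10), Zfp809 (0.11), Mccc1 (0.11), Slc23a1 (0.11) and Adipor2 (0.12), and nearest to Spry4 were Tedc2 (0.14), Zfp809, Map3k5, Hao1 and Fchsd2 (all 0.16). Zfp809 stood in both lists. Dusp6 was followed by Abhd6, Fbxo21, Thnsl2 and Elmod3 (0.21 to 0.22) and Dnajc30 (0.23), and Egr1 by Car2 (0.17), Ly6d (0.18), Rhbg (0.21), Slc2a1 (0.22) and Mab21l2 (0.22). The median candidate lay at 0.54 to 0.57. The measure is not scaled to the spread of a gene, and the pooled SD within groups was 0.24 for Dusp6 and 0.11 for Egfr. All profiles share the same 10 arrays and 4 groups, and a small difference says only that 2 profiles run alike over them.

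**Figure D4:**
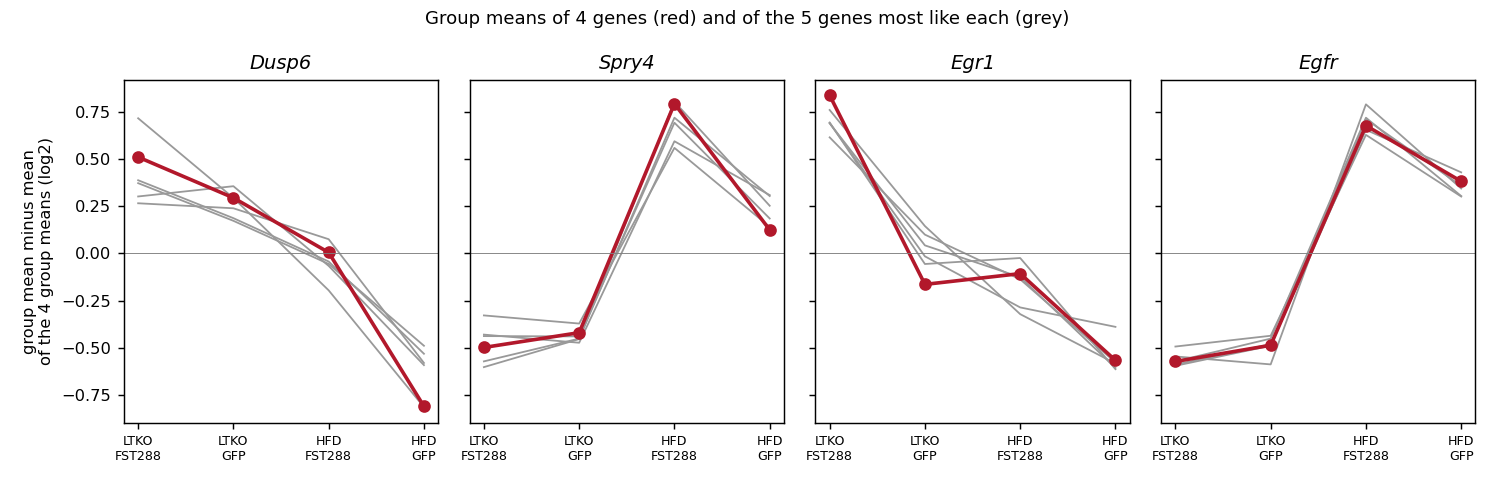
Mean of each group minus the mean of the 4 group means (log2) for Dusp6, Spry4, Egr1 and Egfr (red) and for the 5 genes most like each over 10 arrays (grey). Egfr and Spry4 share 1 order of groups, high in HFD and higher with FST288 there, while Dusp6 runs down across the 4 groups and Egr1 peaks in LTKO FST288 livers.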

How the data were processed

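Labelled DNA from 500 ng of liver RNA was hybridised to 10 whole-transcript arrays, 1 per sample. The authors deposited log2 values made with RMA in Affymetrix Expression Console, per the submitters' processing notes; RMA corrects background, equalises the arrays' distributions and summarises probes. The base of the logarithm was inferred from RMA and from a range of 0.64 to 13.21; the array annotation and genome build are not given in the sources used here. Arrays give no counts, so their number limits the precision.

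Of 41345 transcript clusters, 23521 carried 1 gene symbol in the supplied annotation, 1814 several and 16010 were not listed. For genes with several clusters (1082), the brightest was used, leaving 22180 genes with no filter on dim ones. A model with a mean for each group was fitted over the 10 arrays (limma 3.58.1, R 4.3.3, eBayes with an intensity trend, 6 residual and 7.15 prior degrees of freedom). Tests were two-sided, with Benjamini-Hochberg adjustment over all genes within a contrast and a call at an adjusted p under 0.05. Errors are SE of the fit. The members, the lists and the alternatives were chosen with earlier results of these data known. All 9 members were named. A list gene was named where it was called (at most 6 per list and comparison), and the gene with the smallest p always. Likeness took the 5 nearest genes, without predicted, microRNA, small nucleolar RNA and olfactory receptor genes. The fit was tested on simulated data with known changes, for FST288 against GFP. A log2 change of 0.5 was recovered in 23.6% of changed genes in HFD livers and in 8% in LTKO livers. A change of 1 was recovered in 84.4% and 64.2%. Small changes could thus go uncalled, most of all in LTKO livers. Alternatives were a replicate block, an acinar covariate, both acinar-high arrays left out, the mean of clusters, every cluster, dim genes left out, quantile normalization, no trend, only the groups compared, and each array left out.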

Additional observations from a re-analysis of the deposited data

How the results depend on the processing

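Of 846 alternative values of the 45 results on the 9 genes, 766 kept direction and side of the threshold, 29 lost a call, 7 gained one and 44 changed sign, 0 of them in a called value. The 846 include fits without an array of a group not compared, in which the difference cannot move. For FST288 in HFD livers, 221 called genes became 34 with the acinar covariate, 6 without both acinar-high arrays, 80 with every transcript cluster tested, 101 without the trend, 411 with only the compared groups, and 80 to 307 leaving out 1 array. The 2 called members became 0 with the acinar covariate, without both acinar-high arrays and with every cluster tested (Dusp6 adjusted p = 0.136, Spry4 0.128), 1 without the trend (Dusp6 0.0702), 1 with the mean of clusters, 3 with only the compared groups, and 0 to 2 leaving out 1 array. In LTKO livers 37 called genes became 23, 16, 15 and 16 with the acinar covariate, without both acinar-high arrays, with every cluster and without the trend, 0 by limma with only the compared groups (1665 at an unadjusted p under 0.05), and 21 to 237 leaving out 1 array; 1 member, Egr1, was called with dim genes left out (0.0443). For LTKO against HFD, counts of genes were 1870 to 3037 with GFP and 1533 to 2390 with FST288 leaving out 1 array, and 1141 and 939 with FST288 under both acinar settings, with 2 to 3 and 3 to 4 members called. The difference of effects had 48 called genes, 1 under each acinar setting, 6 with every cluster, 3 without the trend, and 11 to 266 leaving out 1 array, with 0 to 1 members. The cause of these shifts was not tested.

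Deviations from the group mean correlated at 0.00842, -0.00661 and -0.00965 in same-numbered HFD pairs and at -0.0685 in both LTKO pairs. With 2 arrays per LTKO group the deviations mirror each other, so both LTKO pairs must give the same value. Groups this small cannot show whether same-numbered samples were paired. With the replicate block 1 member was called for FST288 in HFD livers, as Spry4 was at 0.67 (adjusted p = 0.0734), and Spry4 was not called between LTKO GFP and HFD GFP livers (-0.54, 0.0689); Spred1 there was at -0.0414. Other changes of sign outside leave-one-out were in Spry1 and Spry2, near 0. Spry1 in HFD livers was at -0.0634 and -0.0793 under both acinar settings, its difference of effects at 0.0725 and 0.0865, and with quantile normalization Spry1 in LTKO livers was at -0.0147 and Spry2 in HFD livers at 0.0142. Leaving out 1 array changed the sign of 14 uncalled results. For FST288 against GFP in HFD livers the ranges were -0.0817 to 0.152 in Spry1, -0.0833 to 0.143 in Spry2 and -0.0860 to 0.132 in Spred2. In LTKO livers they were -0.125 to 0.557 in Dusp6, -0.119 to 0.133 in Spry1, -0.307 to 0.151 in Spry4, -0.0667 to 0.0444 in Spred1, -0.170 to 0.149 in Spred2 and -0.228 to 0.0561 in Egfr. Spred1 between LTKO GFP and HFD GFP livers ran from -0.0407 to 0.0935, and Spry2 between backgrounds with FST288 from -0.150 to 0.276. The difference of effects ran from -0.266 to 0.0694 in Dusp4, -0.145 to 0.121 in Spry1 and -0.171 to 0.149 in Spred2. Calls were also moved in Egfr for FST288 in HFD livers with only the compared groups (called, adjusted p = 0.0256), in Spry4 between LTKO GFP and HFD GFP livers with only those groups (0.0710) and with every cluster (0.0670), and in Spred1 between backgrounds with FST288, called with the acinar covariate (0.0441), with dim genes left out (0.0337) and with quantile normalization (0.0456). Groups of 2 and 3 arrays limit what can be called.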
